A study of Homo sapiens with 6 samples.

Results

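SR proteins and heterogeneous nuclear ribonucleoproteins (hnRNPs) are the RNA-binding proteins that steer the choice of splice sites. The genes described here are the SRSF genes, TRA2A and TRA2B, the CLK1 to CLK4 and SRPK1 to SRPK3 kinases and the genes whose symbol starts with HNRNP, taken by symbol from the deposited table of coding genes. They number 45 of 16798 genes, with 12 SRSF genes, 2 TRA2 genes, 7 kinases and 24 HNRNP genes. Of these, 41 had enough counts for a test, while HNRNPCL2, HNRNPCL3, HNRNPCL4 and SRPK3 did not. The transcript table held 261 accessions of these genes out of 75835.

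Total RNA of COV434 cells, an immortalized human line labelled as granulosa cells, was sequenced in 6 samples. The 3 control samples carried the genotype tag WT, and the labels do not say whether they received a vehicle. The 3 treated samples were exposed to 15 µM 4HC for 24 h, and their tags name CTX (cyclophosphamide), of which 4HC is a preactivated form that breaks down in culture medium to the alkylating mustard. Nothing in the sources used here says that the 3 samples of a group were separate cultures, so the p-values measure the spread between these samples, which may be technical.

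Each sample held 16133786 to 16702316 expected counts, which are estimates of the reads from each gene and need not be whole. The counts were scaled by edgeR's TMM method to CPM, the counts in each 1e+06 of a library. All changes below are therefore relative to the other genes of the same library. Of the granulosa markers, FOXL2, FSHR, CYP19A1, INHBB, STAR, GATA4 and NR5A1 lay between 0 and 0.11 TPM (a level scaled to transcript length and to a fixed total in each sample) in every sample. AMH lay between 3.94 and 6.73 TPM, INHA between 0.72 and 1.73 TPM and KRT18 between 0.25 and 1.12 TPM. WT1 lay between 103 and 135 TPM and was lower in 4HC, so that the summed TPM of the 11 granulosa markers in the table ranged from 139 to 143 in control and from 111 to 117 in 4HC. The markers of other cell types summed to 368 to 391 TPM in control and 378 to 380 TPM in 4HC, nearly all of it ACTA2 and LUM. The oocyte markers summed to 17.3 to 21.1 TPM in control and 18.2 to 22.0 TPM in 4HC, mostly ZP3, with DDX4 at most at 0.09 TPM. SMARCA4, a chromatin remodelling ATPase, lay between 6.27 and 8.5 TPM, and SMARCA2 was at most at 0.07 TPM. The part of the WT1 change in the results below was not tested, and in bulk RNA fewer cells of a type and less RNA per cell cannot be told apart.

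SR proteins carry RNA recognition motifs and a tail rich in arginine and serine, bind exonic enhancers and help the spliceosome to recognise an exon. Many hnRNPs bind splicing silencers and act against them, and several also package, stabilise or export mRNA. SRPK kinases phosphorylate the tails in the cytoplasm, which allows import into the nucleus, and CLK kinases phosphorylate them further in the nucleus. Members of both families control their own amounts through retained introns and exons that carry stop codons.

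The SR and hnRNP genes were mostly lower after 4HC, each by a small amount. Of the 41 tested genes, 24 were lower and 1, CLK1, was higher at an adjusted p under 0.05. That is 58.5% lower and 2.44% higher, where 17.1% of all 12368 tested genes were lower and 19.2% were higher. The median log2 fold change was -0.10 over the tested genes of the family and 0.0047 over all genes. The 24 lower genes fell by 0.08 to 0.40 on the log2 scale, and none of the family changed by as much as 2-fold. The groups did not overlap, with every 4HC sample below every control sample, in 24 of the 41 genes, against 21.9% of all genes, and every 4HC sample was above every control sample in 4 of them, against 23.4% of all genes. Summed over the 45 genes, expression was 9164 to 9557 TPM in control and 8281 to 8556 TPM in 4HC, a fall by 9.74%. The family took 1.547, 1.549 and 1.588% of all expected counts in the control samples and 1.401, 1.435 and 1.452% in the 4HC samples. The adjusted p-values came from edgeR's quasi-likelihood test adjusted by Benjamini and Hochberg's method across the 12368 genes.

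**Figure D1:**
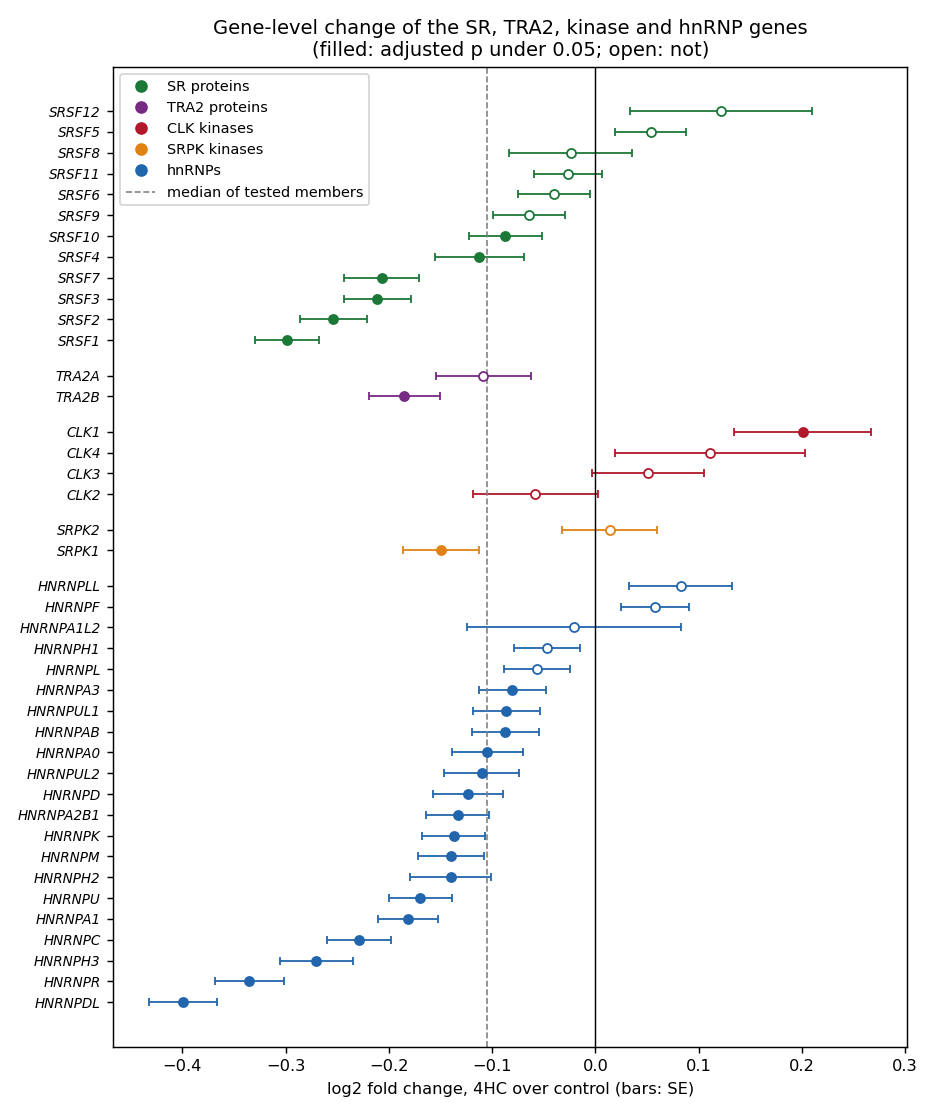
Log2 fold change of each tested gene (x axis, 4HC over control, bars are the SE of the fit) grouped by family, with filled points for an adjusted p under 0.05. The points run from -0.40 for HNRNPDL to 0.20 for CLK1, and 33 of the 41 lie below 0.

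By role, the hnRNPs had 16 lower genes of 21 tested and the SR proteins 6 of 12, with no higher gene in either family at an adjusted or an unadjusted p under 0.05 in edgeR. TRA2B was lower, and TRA2A was not called. Among the kinases SRPK1 was lower and CLK1 higher. The call of CLK1 was lost without control replicate 3 or without 4HC replicate 3. The number of lower genes of the family was 17 and 20 without these samples, beside 1680 of 12473 and 1979 of 12454 over all genes.

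Among the SR proteins, SRSF1, the founding member of the family and a binder of purine-rich exonic enhancers, fell most. It measured 520.5, 508 and 523 CPM in the 3 control samples and 415, 420.1 and 427 CPM in the 3 4HC samples. The 4HC samples were all well below the control samples, with a log2 fold change of -0.30 ± 0.031 (SE, n = 3 against 3, edgeR adjusted p = 3.08e-11). SRSF2, which like SRSF1 activates exons and also acts in transcription elongation, measured 389, 381 and 384 CPM in control and 317, 331 and 319.6 CPM in 4HC. Its groups were as clearly apart, with a log2 fold change of -0.25 ± 0.032 (SE, edgeR adjusted p = 7.43e-09). SRSF3 and SRSF7, a pair of SR proteins that also act as adaptors for mRNA export, both had a log2 fold change of -0.21 (adjusted p = 6.13e-07 and 7.85e-06 in edgeR). SRSF4 and SRSF10 were near the threshold, at log2 fold changes of -0.11 and -0.09 with edgeR adjusted p-values of 0.0365 and 0.0447. SRSF10 lost its call whichever sample was left out, and SRSF4 lost its call without control replicate 1 or 2 or 4HC replicate 2 or 3.

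SRSF5, SRSF6, SRSF8, SRSF9, SRSF11 and SRSF12 did not pass the test. Their log2 fold changes lay between -0.06 for SRSF9 and 0.12 for SRSF12, and the groups overlapped in all of them but SRSF12, whose 3 4HC samples were above its 3 control samples at 5.89 ± 0.069 TPM in control and 6.39 ± 0.055 TPM in 4HC (SD). Of the transformer-2 proteins, which bind GAA-rich enhancers beside SR proteins, TRA2B had a log2 fold change of -0.19 ± 0.034 (SE, edgeR adjusted p = 2.03e-05). TRA2A had one of -0.11 ± 0.046 (SE, edgeR adjusted p = 0.0577), and its groups overlapped. It was called lower in 6 of the 14 alternatives.

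SRSF1 was also the member with the smallest p-value in the test of transcript use, which asks whether a transcript changed differently from the rest of its gene. Its 2 deposited models differ in the intron between exons 3 and 4. NM_006924 removes it, and NM_001078166 keeps it and reads from exon 3 into a stop codon within the intron. The intron is chr17:58005601-58005800 in GRCh38 on the minus strand, has 200 bases with 36% G or C, and lies within the coding part of NM_006924. GENCODE release 29 gives the structure, and the ratio of count to TPM in the deposited table put NM_001078166 at 200.8 bases longer than NM_006924. The sequence that the 2 models read differently is shown from the last 30 bases of exon 3 to the stop codon (chr17:58005747-58005830), with the GT of the 5′ splice site and the stop codon in capitals.
SRSF1 exon 3 into the retained intron: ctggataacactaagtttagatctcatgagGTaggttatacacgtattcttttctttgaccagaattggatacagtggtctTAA

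When the GT is spliced out, exon 3 joins exon 4, which encodes the arginine and serine tail. When the intron is kept, 17 codons follow exon 3 before the stop, so the model ends ahead of that tail.

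NM_001078166 made up 15.0, 15.5 and 13.7% of the SRSF1 expected counts in the control samples and 19.5, 21.1 and 18.8% in the 4HC samples. All 4HC shares were above all control shares, at 14.7% ± 0.916 in control and 19.8% ± 1.16 in 4HC (SD, n = 3 each). Relative to its whole gene, the transcript was higher by 0.43 on the log2 scale (edgeR diffSpliceDGE, adjusted p = 0.00146 over 37243 transcripts). The spliced model moved more than the other. NM_006924 went from 438 ± 11.1 to 340 ± 7.24 counts in each 1e+06 of the library, a log2 ratio of -0.37, and NM_001078166 from 75.7 ± 3.77 to 83.8 ± 4.53, a log2 ratio of 0.15 (SD). For every 100 counts of NM_006924 there were 17.3 ± 1.26 of NM_001078166 in control and 24.7 ± 1.81 in 4HC (SD). The call was lost with voom and limma (adjusted p = 0.0546), with no filter on low counts (0.12 in edgeR) and without control replicate 3 (0.0674 in edgeR).

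**Figure D2:**
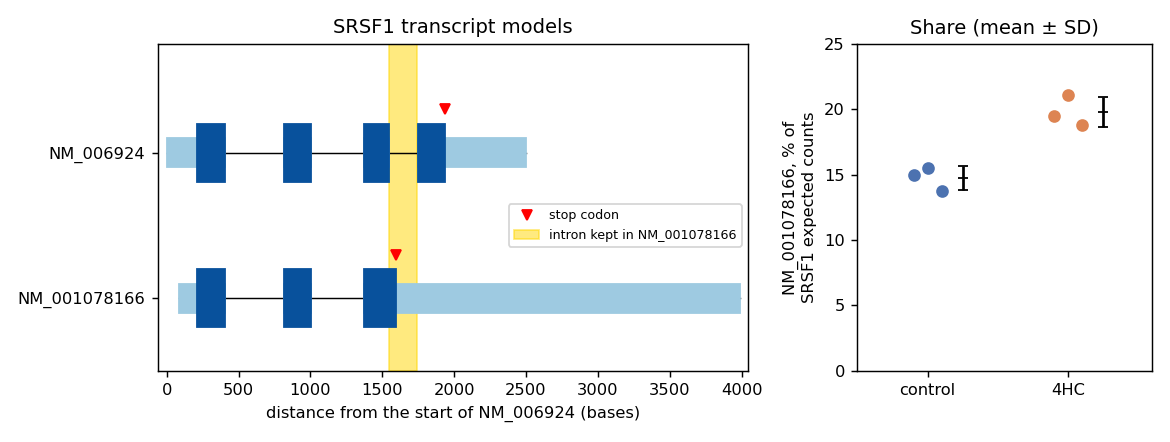
Left, exons of the SRSF1 models NM_006924 and NM_001078166 drawn to scale by distance from the start of NM_006924 in bases, with coding parts as tall boxes, the retained intron shaded and stop codons marked; the transcript ends are those of GENCODE. Right, the share of NM_001078166 in each sample with mean and SD, at 13.7 to 15.5% in control and 18.8 to 21.1% in 4HC.

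Of the hnRNPs, HNRNPDL, a relative of the mRNA decay factor HNRNPD that lies beside it at 4q21.22, fell most of all members. It measured 424, 418 and 438 CPM in control and 316, 328 and 326 CPM in 4HC. The highest 4HC sample was below the lowest control sample, and the log2 fold change was -0.40 ± 0.033 (SE, edgeR adjusted p = 8.47e-15), a change of -24.2%. HNRNPR, an hnRNP that travels with mRNA into neurites and is related to SYNCRIP, measured 413, 431 and 446 CPM in control and 333, 339 and 350.3 CPM in 4HC. All its 4HC samples were lower, with a log2 fold change of -0.34 ± 0.033 (SE, edgeR adjusted p = 6.25e-12).

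HNRNPH3 belongs to the hnRNP H and F group, whose members bind runs of G. It measured 222, 216 and 226 CPM in control and 181, 185 and 185 CPM in 4HC. Its groups were apart, with a log2 fold change of -0.27 ± 0.035 (SE, edgeR adjusted p = 1.21e-08). Its relatives did not move alike in the table: HNRNPH2 had a log2 fold change of -0.14 (edgeR adjusted p = 0.00367), HNRNPH1 of -0.05 (0.263) and HNRNPF of 0.06 (0.172). HNRNPC, which binds runs of U in introns, measured 783, 786 and 814 CPM in control and 655, 685 and 693 CPM in 4HC. Each 4HC sample was lower than each control sample, with a log2 fold change of -0.23 ± 0.031 (SE, edgeR adjusted p = 2.81e-08).

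The 4 most abundant members by TPM were hnRNPs, and all of them were lower. HNRNPA1, HNRNPA2B1, HNRNPK and HNRNPC together took 36.7% of the summed control TPM of the family. HNRNPA1, the classical antagonist of SRSF1 at 5′ splice sites, was the most abundant at 1324 ± 20.5 TPM in control and 1161 ± 38.7 TPM in 4HC (SD). Its counts were 2767, 2816 and 2836 CPM in control and 2380, 2478 and 2564 CPM in 4HC, with no overlap and a log2 fold change of -0.18 ± 0.029 (SE, edgeR adjusted p = 1.27e-06). HNRNPA2B1, another core protein of the hnRNP particle, measured 1270, 1242 and 1319 CPM in control and 1129, 1165 and 1198 CPM in 4HC. Its smaller log2 fold change was -0.13 ± 0.030 (SE, edgeR adjusted p = 0.000376). HNRNPK, which binds runs of C through KH domains, measured 1126, 1069 and 1150 CPM in control and 1001, 1013 and 1028 CPM in 4HC. Its groups were apart as well, with a log2 fold change of -0.14 ± 0.030 (SE, edgeR adjusted p = 0.000266).

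The other lower hnRNPs were HNRNPU, a nuclear scaffold protein, at a log2 fold change of -0.17, HNRNPM at -0.14, HNRNPD at -0.12, HNRNPUL2 at -0.11, HNRNPA0 at -0.10, HNRNPAB at -0.09, HNRNPUL1 at -0.09 and HNRNPA3 at -0.08. HNRNPUL2 was the only called member whose groups overlapped. Without control replicate 3 the calls of HNRNPA0, HNRNPA3, HNRNPAB, HNRNPD, HNRNPUL1 and HNRNPUL2 were lost. The calls of HNRNPAB and HNRNPUL1 were also lost without control replicate 2 or 4HC replicate 3, those of HNRNPAB and HNRNPA3 without 4HC replicate 1, and that of HNRNPUL2 without 4HC replicate 2. HNRNPL, a binder of CA repeats, was not called at -0.06 (edgeR adjusted p = 0.164) although its groups did not overlap. HNRNPLL and HNRNPA1L2 had log2 fold changes of 0.08 and -0.02 and were not called, and HNRNPCL2, HNRNPCL3 and HNRNPCL4 had at most 1 count in any sample.

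**Figure D3:**
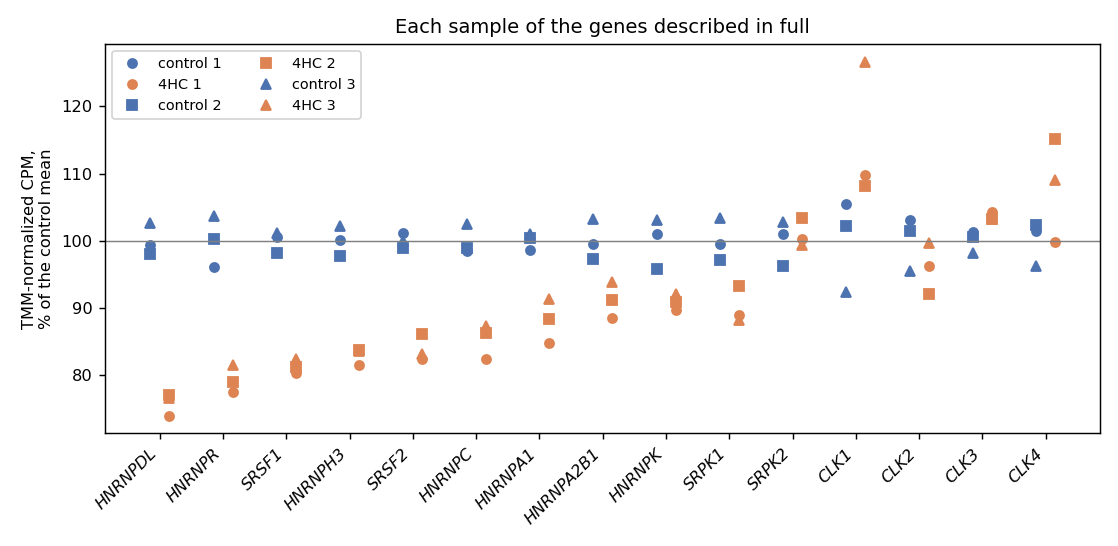
TMM-normalized CPM of each sample as a percentage of the control mean of the gene (y axis) for the genes given sample by sample, with control samples in blue and 4HC samples in orange. The 4HC points of HNRNPDL to SRPK1 all lie below the control points, while those of SRPK2, CLK2 and CLK4 overlap with them and those of CLK1 and CLK3 lie above.

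The kinases that act on SR proteins did not share one direction. SRPK1, the main cytoplasmic SR kinase, measured 190, 185 and 197 CPM in control and 170, 178 and 168 CPM in 4HC. Its groups were apart, with a log2 fold change of -0.15 ± 0.037 (SE, edgeR adjusted p = 0.00101). SRPK2 measured 70.7, 67.3 and 71.9 CPM in control and 70.1, 72.3 and 69.6 CPM in 4HC, with a log2 fold change of 0.01 ± 0.046 (SE, edgeR adjusted p = 0.846). SRPK3, known from muscle, had 1, 1 and 0 counts in control and 1, 1 and 9 counts in 4HC, so only 4HC replicate 3 rose above 3 counts.

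CLK1, a nuclear kinase that phosphorylates SR proteins and whose own transcript is held back in the nucleus with introns retained, measured 27.8, 26.9 and 24.3 CPM in control and 28.9, 28.5 and 33.4 CPM in 4HC. The groups did not overlap, but the highest control sample and the lowest 4HC sample were close together and 4HC replicate 3 stood above the others. The log2 fold change was 0.20 ± 0.067 (SE, edgeR adjusted p = 0.0147), and it was 0.14 without control replicate 3 and 0.12 without 4HC replicate 3, both uncalled. DESeq2 and limma on log2 TPM did not call it.

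CLK2 measured 33.2, 32.7 and 30.8 CPM in control and 31.0, 29.7 and 32.1 CPM in 4HC, with overlapping groups and a log2 fold change of -0.06 ± 0.060 (SE, edgeR adjusted p = 0.481). CLK3 measured 39.6, 39.3 and 38.4 CPM in control and 40.7, 40.3 and 40.3 CPM in 4HC. Its 4HC samples were slightly above all control samples, but its log2 fold change of 0.05 ± 0.055 was not called (SE, edgeR adjusted p = 0.497). CLK4 measured 12.0, 12.1 and 11.3 CPM in control and 11.8, 13.6 and 12.8 CPM in 4HC, with overlapping groups and a log2 fold change of 0.11 ± 0.092 (SE, edgeR adjusted p = 0.368).

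Levels between genes were compared as TPM. They spanned from HNRNPA1 at 1324 TPM to SRSF12 at 5.89 TPM among the tested members in control. The most abundant SR proteins were SRSF9 at 412 ± 16.5 TPM, SRSF2 at 335 ± 4.13 TPM and SRSF5 at 308 ± 10.6 TPM (SD, n = 3), and these 3 did not overlap with each other. TRA2B, HNRNPDL, SRSF1 and HNRNPUL1 lay close together at 166 ± 5.37, 163 ± 5.09, 159 ± 3.62 and 158 ± 2.10 TPM (SD), and the samples of each overlapped with those of the next. In 4HC the order of these 4 was TRA2B and HNRNPUL1 at 147 ± 1.37 and 148 ± 0.947 TPM above SRSF1 at 128 ± 1.58 and HNRNPDL at 123 ± 1.81 TPM (SD). All tested kinases lay below these genes, from SRPK1 at 73.5 TPM to CLK4 at 8.32 TPM in control.

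**Figure D4:**
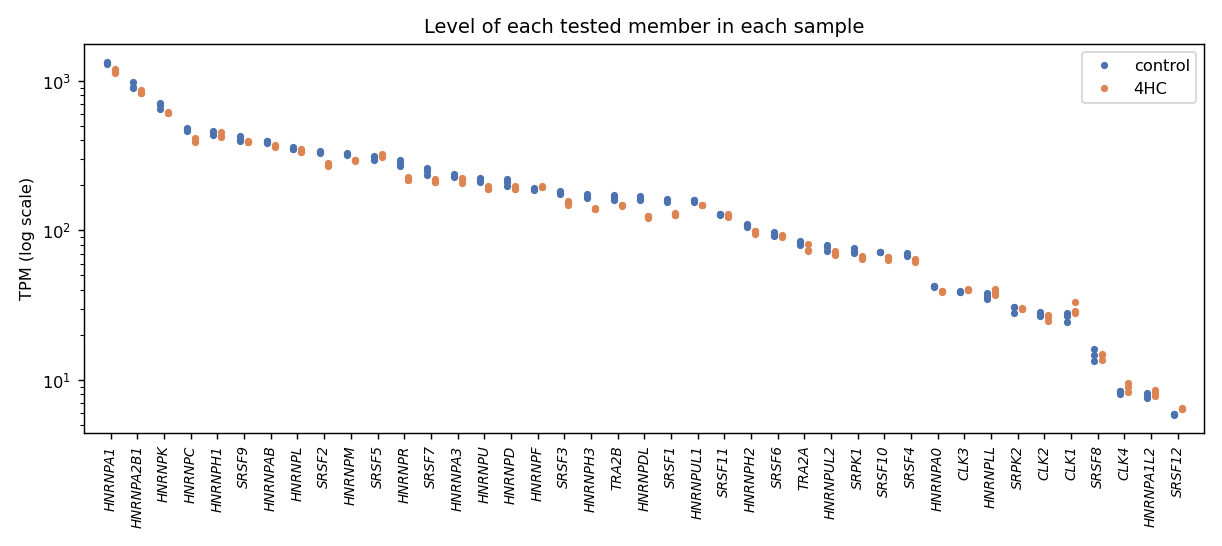
Level of each tested member in each sample as TPM on a log axis, ordered by the control mean, with control samples in blue and 4HC samples in orange. The order runs from HNRNPA1 at 1324 TPM to SRSF12 at 5.89 TPM in control, and the orange points of many abundant members sit just below the blue ones.

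The calls lay mostly with the abundant members. Of the 25 members with at least 100 TPM in control, 19 were lower (76%), against 34% of the 1391 genes of that level. Of the 16 members under 100 TPM, 5 were lower (31.2%), against 15% of the 10977 genes below that level. Across the 41 members, the log2 control TPM and the log2 fold change had a Pearson r of -0.55 and a Spearman rho of -0.50. This describes genes of the same 6 libraries, which are not independent replicates, and the call depends on depth, which was greater for the abundant members.

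In the test of transcript use, 205 accessions of 32 members were tested and 2 were called, which is 0.976% where 0.859% of all 37243 transcripts were called. The share among the members was thus near that of all transcripts. At an unadjusted p under 0.05 there were 8 of the 205 member transcripts. The number of all transcripts at that limit was not taken, so this count has nothing to be set against. The 9 other tested members, CLK3, CLK4, HNRNPA0, HNRNPUL2, SRPK1, SRSF3, SRSF6, SRSF8 and SRSF9, kept fewer than 2 transcripts after the filter. The deposited table held 0 noncoding accessions, so transcripts of SR genes that are annotated as noncoding, among them many with exons that carry stop codons, were not measured here.

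The second call was HNRNPC XM_011536709, which had 16.1, 11.4 and 10.6 expected counts in control and is listed at 0 in all 4HC samples. It made up 0.0983% of HNRNPC in control. It passed the count filter through its control samples alone. Its call (edgeR diffSpliceDGE, adjusted p = 0.00517) is therefore no support for a change, and 9 of 11 alternatives did not call it. The reads of HNRNPC were divided between 15 models, so no limit on a fold change is set from the listed 0. The main HNRNPC transcript, NM_004500, had 27.7, 26.8 and 28.7% of the gene in control and 26.9, 25.8 and 24.6% in 4HC, with overlapping groups.

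HNRNPF NM_001098207 just missed the threshold. It had 5.97, 5.27 and 4.90% of the gene in control and 10.7, 10.7 and 7.19% in 4HC, all higher than control, with a log2 difference from its gene of 0.82 (edgeR diffSpliceDGE, adjusted p = 0.0631). It passed in 1 of 12 alternatives, without 4HC replicate 3 (0.00125 in edgeR diffSpliceDGE). HNRNPH1 NM_001364235 had 11.0, 27.7 and 24.0 expected counts in control and 95.6, 69.1 and 73.9 in 4HC, which is 0.233% ± 0.1 and 0.912% ± 0.17 of the gene (SD). Its groups were apart, yet it was not called (edgeR diffSpliceDGE, adjusted p = 0.169). It was called in 1 of 12 alternatives, with a minimum of 10 counts in every sample (0.00283 in edgeR diffSpliceDGE). HNRNPC XM_011536709 was then not tested.

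CLK2 NM_001294338 had 24.1, 21.8 and 16.7% of its gene in control and 47.3, 45.1 and 29.95% in 4HC. The groups did not overlap, but the log2 difference of 0.95 was not called (edgeR diffSpliceDGE, adjusted p = 0.584), and the spread within each group was wide. HNRNPK XM_005251963 had 11.3, 11.2 and 11.0% in control and 12.6, 12.6 and 12.4% in 4HC, a small step without overlap that was not called (adjusted p = 1.0 in edgeR). HNRNPA3 NM_001330251 had 3.91% ± 0.77 in control and 2.60% ± 0.736 in 4HC (SD), with overlapping groups. Over all tested member transcripts, the share of the gene was without overlap and lower in 14 and higher in 11, which is 6.83% and 5.37% where 6.29% and 5.87% of all transcripts were.

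HNRNPD, the AU-rich element binding protein AUF1, makes 4 protein isoforms by keeping or skipping exons 2 and 7. The estimated counts of its transcripts differed between samples of the same group. NM_031370 keeps both exons, NM_002138 lacks exon 7, NM_031369 lacks exon 2, and NM_001003810 was 204.6 bases shorter than NM_031370 by its ratio of count to TPM, next to the 57 and 147 bases of both exons. The exons are shown because the isoforms differ only by them. They are chr4:82371528-82371584 and chr4:82356537-82356683 in GRCh38 on the minus strand and are wholly coding, taken from GENCODE release 29, with no base in capitals.
HNRNPD exon 2: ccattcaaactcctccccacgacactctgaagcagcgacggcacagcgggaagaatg
HNRNPD exon 7: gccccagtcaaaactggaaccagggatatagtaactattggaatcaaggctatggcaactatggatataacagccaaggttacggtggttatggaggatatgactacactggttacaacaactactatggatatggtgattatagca

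NM_001003810 had 228, 190 and 214 expected counts in control and 707, 805 and 212 in 4HC. NM_031369 had 545, 731 and 653 in control and 69.3, 47.5 and 654 in 4HC. The first 2 4HC samples differed from control in both transcripts, and 4HC replicate 3 was like the control samples. Neither was called over all 6 samples (edgeR diffSpliceDGE, adjusted p = 0.179 for NM_001003810 and 1.0 for NM_031369), while both were without 4HC replicate 3 (3.11e-18 and 4.19e-22). Without that sample NM_002138 was called as well (0.00695), and the member transcripts called rose from 2 to 8. Calls over all transcripts rose too, from 320 of 37243 to 700 of 41404. Among the 8, HNRNPA1L2 NM_001389320, HNRNPUL1 XM_011526394 and SRPK2 NM_182691 had 0 counts in every control sample.

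The sums by exon did not show this difference. Transcripts without exon 2 together had 13.1, 16.3 and 13.8% of HNRNPD in control and 14.4, 15.8 and 15.5% in 4HC. Transcripts without exon 7 had 39.0, 41.3 and 43.3% in control and 38.7, 41.5 and 41.2% in 4HC. Both sums overlapped between the groups, at 14.4% ± 1.66 and 15.2% ± 0.748 for exon 2 and at 41.2% ± 2.14 and 40.5% ± 1.55 for exon 7 (SD). What differed between samples was how the estimated counts paired the 2 skipped exons within 1 transcript. Whether the RNA differed, or only the division of reads between transcripts, was not tested. Exons 2 and 7 lie 563 bases apart in the transcript, and the read length that would link them is not given in the sources used here.

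**Figure D5:**
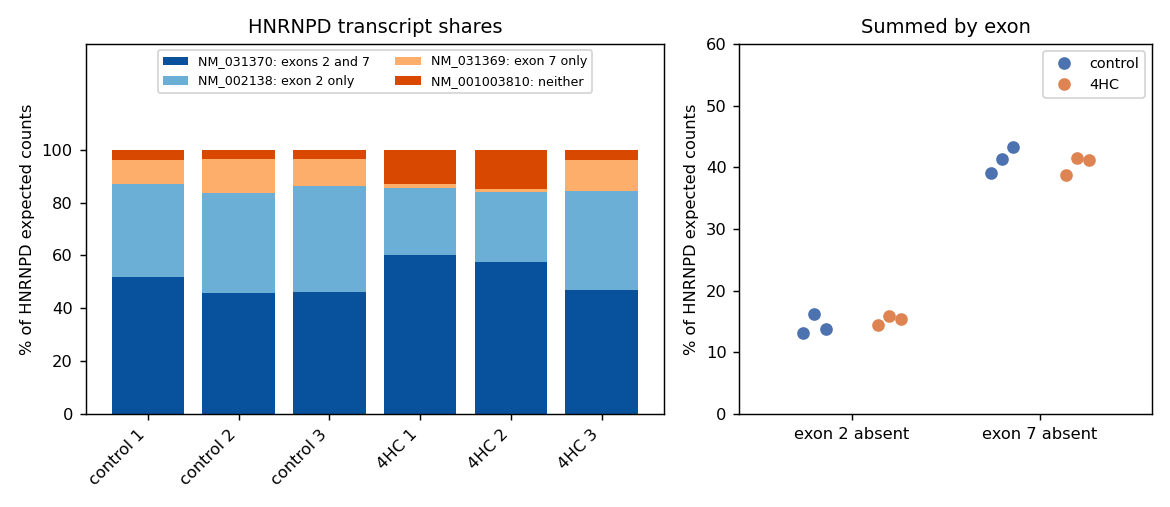
Left, share of the 4 HNRNPD transcripts in each sample as stacked bars in percent of the HNRNPD expected counts. Right, the same counts summed as transcripts without exon 2 and without exon 7, 1 point per sample, where 13.1 to 16.3% and 38.7 to 43.3% are seen with both groups overlapping.

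Among other isoform choices of these genes, some overlapped between the groups and some did not. HNRNPA1 NM_031157, which keeps an extra exon of 156 bases in the glycine-rich part, had 9.58, 9.24 and 8.94% of the gene in control and 8.28, 8.42 and 10.0% in 4HC. HNRNPA2B1 NM_031243, the B1 form, had 14.5, 20.0 and 9.4% in control and 14.0, 17.3 and 7.52% in 4HC, a wide spread in both groups. TRA2A NM_001362761 had 23.9, 22.1 and 23.9% in control and 27.7, 29.2 and 28.6% in 4HC, with groups apart but no call (adjusted p = 1.0 in edgeR). SRSF12 NM_080743, whose mean share moved most of the transcripts with at least 10% of their gene, had 81.4, 79.5 and 82.6% in control and 49.5, 43.7 and 72.8% in 4HC. All its 4HC samples were lower, with a wide spread among them and no call (adjusted p = 1.0 in edgeR). Of the 79 tested transcripts with at least 10% of their gene in control, the mean share moved by a median of 1.44 percentage points and by at least 5 points in 14.

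The rest of the splicing machinery was compared in the same fit. Of 55 core spliceosome genes, 15 were lower and 5 higher, and the median log2 fold change was -0.04. Of 42 tested other splicing regulators of 49 listed, 16 were lower and 4 higher, at a median of -0.08. Of 41 genes for coactivators with such tails, kinase relatives and SR protein transport, 11 were lower and 2 higher, at a median of -0.03. Of 18 genes of nonsense-mediated decay and the exon junction complex, 7 were lower and 1 higher, at a median of -0.03. Over the 4 lists 31.4% of the tested genes were lower and 7.69% higher, against 58.5% and 2.44% of the SR and hnRNP genes. Over all tested genes 17.1% were lower and 19.2% higher. The lists were not matched by level to the SR and hnRNP genes or to all genes.

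Named by the size of their change in each list, SNRPA1, the U2 A′ protein, had a log2 fold change of -0.26 (edgeR adjusted p = 4.97e-05). U2AF1 had one of -1.31 (edgeR adjusted p = 0.0135), but its samples ranged from 0.69 to 8.7 TPM in control and from 0 to 6.3 TPM in 4HC, so the groups overlapped, and the gene has a near-identical copy in the reference. RBM38, an RNA-binding p53 target, and PTBP3, a polypyrimidine tract binding protein, were higher by 0.42 and 0.31 (8.52e-09 and 1.13e-07), and KHDRBS2 was lower at -0.78 (0.0129) from 1.96 CPM in control. SON, a large nuclear speckle protein, and DYRK2, a kinase relative, had log2 fold changes of -0.22 and -0.34, and PPP1CA, a catalytic subunit of protein phosphatase 1, of 0.30 (1.44e-07, 1.08e-05 and 5.63e-09). SMG6, the endonuclease of nonsense-mediated decay, was higher by 0.33, and SMG1 and DHX34 of the same pathway were lower at -0.18 and -0.20 (1.35e-06, 4.52e-05 and 0.00443).

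Some values rest on reads that cannot be placed with certainty. The expected counts were not whole in 9 of the 41 tested members, HNRNPA1, HNRNPA1L2, HNRNPH2, HNRNPUL1, SRPK2, SRSF2, SRSF9, SRSF10 and SRSF12, so part of their reads was divided between genes in the counting. HNRNPA1 and HNRNPA1L2 are a near-identical pair. In 10 members an exon overlaps a coding gene on the opposite strand in GENCODE release 29, as SRSF2 does with MFSD11 and HNRNPH3 with RUFY2. Whether the libraries kept the strand is not given in the sources used here. Exons of SRSF1, HNRNPH2, HNRNPL, HNRNPUL2 and SRPK3 overlap a coding gene on the same strand, which is AC015813.2 for SRSF1. The part of these overlaps in the counts was not tested.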

How the data were processed

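RNA of 3 control and 3 4HC samples was sequenced, and the samples were grouped by their labels. Reads were filtered with SOAPnuke. The submitters' processing notes name HISAT2, Bowtie2, RSEM 1.3.1 and the build GRCh38.p13. The authors deposited expected counts (estimated counts, without normalization) and TPM values, scaled to transcript length and library, for genes and transcripts. Of the deposited expected counts of genes, 85.8% were whole within 1e-09. Fold changes, p-values and q-values of the authors' own comparison and 12 FPKM columns were not used, nor was a second gene table.

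The rounded expected counts went into edgeR 4.0.16 under R 4.3.3 (TMM, filterByExpr, quasi-likelihood F test, condition as the only term), two-sided, with Benjamini-Hochberg adjustment over all 12368 genes and a call at an adjusted p under 0.05. Transcript use was tested with diffSpliceDGE on all genes with at least 2 transcripts left, with copies of an accession on alternate scaffolds summed (3688 of 79213 rows). The share of noncoding models was to be tested but was not, since the table held 0 such accessions. The limit for a count of 0 was set at 3 counts. It covers counting error only, and no fold change is drawn from it.

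The members and lists were chosen with earlier results of these data known. Sample values are given for the 6 largest falls and rises among called members (CLK1 was the only rise), the tested kinases, the 4 members with the highest TPM and the 8 with the smallest adjusted p in transcript use (ties, as for HNRNPK and HNRNPA3, broken by the unadjusted p), and from each list of splicing genes for the 3 largest called changes, of which 1 is not reported here. SRSF12, HNRNPL, HNRNPC NM_004500, HNRNPA1 NM_031157, HNRNPA2B1 NM_031243, TRA2A NM_001362761 and SRSF12 NM_080743 were named after their values were seen.

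Both tests were first tested on simulated data. The gene test recovered 52% of simulated log2 changes of 0.2 and 90% of those of 0.5. The transcript test recovered 2% of changes of 0.5 and 57% of changes of 1.0. Of the calls, 4.05% lay outside the changed genes in the gene test and 3.28% in the transcript test. Each simulation used a single set spread for all its genes or transcripts. Transcript changes were placed only on transcripts with high counts and a minor share of their gene. The recovery does not describe other transcripts. A transcript that was not called may therefore still have changed. Alternatives were DESeq2 1.42.0, its size factors in edgeR, library size only, no filter, at least 10 counts in every sample, a replicate block, limma 3.58.1 on log2 TPM with a pseudocount of 1 or 0.1, voom with diffSplice, TPM shares and the removal of each sample. Structures and sequences came from GENCODE release 29 (GRCh38). Tables and figures were made in Python 3.11.15 (pandas 2.3.3, matplotlib 3.10.9).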

Additional observations from a re-analysis of the deposited data

How the results depend on the processing

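The number of lower SR and hnRNP genes, 24, lay between 19 (library size only) and 25 under the 8 alternatives with all samples. It lay between 17 (without control replicate 3) and 22 when 1 sample was left out. Over all genes 2118 of 12368 were lower, against 1735 with library size only and 1680 of 12473 without control replicate 3. When 1 sample was left out, this number over all genes ran from 1680 to 1979. Of the 25 called members, 16 kept their call and direction under all 14 alternatives, and the 9 that lost it at least once were CLK1, HNRNPA0, HNRNPA3, HNRNPAB, HNRNPD, HNRNPUL1, HNRNPUL2, SRSF4 and SRSF10. None of the 25 changed direction. The 1 higher member became 0 with DESeq2 and with limma on log2(TPM + 1) and log2(TPM + 0.1), where 1 was higher at an unadjusted p under 0.05, and ranged from 0 to 1 when a sample was left out (0 at an unadjusted p without control replicate 3 or without 4HC replicate 3, in edgeR). The 12 higher genes of the 4 other splicing lists became 7 with limma at either pseudocount. They became 7 to 13 when a sample was left out, with 7 without control replicate 3. Over all genes 2379 were higher, against 1717 with DESeq2 and 1921 and 1917 with limma at a pseudocount of 1 and 0.1. Without control replicate 3 there were 1942 of 12473. The 2 called member transcripts became 0 with voom and limma, 0 with no filter and 1 with the replicate block. They ranged from 2 to 8 when a sample was left out, with 8 without 4HC replicate 3. Among all transcripts 320 of 37243 were called, against 62 with voom and limma, 119 with the replicate block and 310 of 70030 with no filter. At an unadjusted p under 0.05 there were 22 member transcripts with voom and limma and 17 with no filter in edgeR. These have no count over all transcripts to be set against. Over all transcripts the calls rose from 320 to between 685 and 719 when a sample was left out. The cause of these differences was not tested. The 3 members that were not called and changed sign were HNRNPA1L2, SRPK2 and SRSF8. HNRNPA1L2 went from -0.02 to 0.048 and 0.053 with limma at a pseudocount of 1 and 0.1 and ranged from -0.062 to 0.015 when a sample was left out, SRPK2 ranged from -0.014 to 0.033 and SRSF8 from -0.084 to 0.037. Kept apart, copies on alternate scaffolds gave 2 called member transcripts, an alternative chosen after seeing the data. As a share of TPM, SRSF1 NM_001078166 was at 14.3% in control and 19.2% in 4HC. Deviations of same-numbered samples from their group means correlated weakly, at 0.00866, 0.0694 and 0.0302. Control replicates 2 and 3 correlated best with the 4HC sample of the same number, and control replicate 1 with 4HC replicate 3. With 3 samples in each group, such small values cannot decide whether the numbers pair the samples. With the replicate block 22 members were lower and 1 higher, beside 1954 lower and 2259 higher of all 12368 genes. The depth limited transcripts with few counts, such as HNRNPC XM_011536709, and a share of noncoding models was not run.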
